A study of Mus musculus with 7 samples.

Results

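Keratins are the intermediate filament proteins of epithelial cells, and 10 of their genes were followed here in the uterus of CD-1 mice, an outbred stock, aged 2 months and left untreated. The genes were taken by symbol from a table of 31274 rows. Krt7, Krt8, Krt18, Krt19 and Krt23 form a group of 5 keratins of simple, single-layered epithelium, and Krt5, Krt14, Krt15, Krt17 and Krt10 form a group of 5 keratins of stratified, multi-layered epithelium. The study compared intact mice at diestrus, the progesterone-dominated phase of the estrous cycle (4 libraries), with intact mice at estrus, the phase after the estradiol peak (3 libraries). The labels name no transgene and no agent for either group. They do not tell if 1 library stands for 1 mouse, so p-values below measure only the spread between these libraries, which may be technical. The 10 genes were chosen by their FPKM at estrus and diestrus in these same libraries. Their levels and differences are therefore given as a description, without a test.

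Keratin filaments are built from obligate pairs of an acidic type I and a basic type II chain. Krt8 (type II) with Krt18 (type I) is the basic pair of simple epithelia, to which Krt7 (type II) and Krt19 (type I) are added in ducts and glands. Krt5 (type II) with Krt14 (type I) is the pair of basal cells in stratified epithelia such as skin and vagina, Krt10 belongs to the layers above them, and Krt17 and Krt15 mark appendage and basal cells. The uterine lumen and glands are lined by a simple columnar epithelium, which estradiol drives to proliferate and progesterone restrains, whereas the vagina and the outer cervix of the mouse carry a stratified epithelium that cornifies at estrus.

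Values are FPKM, a measure defined as fragments divided by transcript length and by the library's total of mapped fragments. They allow levels of different genes to be set side by side. The total or scaling factor used for these libraries is not given. Median-ratio factors of the deposited values lay between 0.99 and 1.01 in all 7 libraries. Whether they had been scaled between libraries before deposit was not tested. The absolute depth was unknown. The most frequent ratio of low values between each library and estrus replicate 1 gave relative depths from 0.92 to 1.36 times that of this replicate. Markers of the tissue were present: all 20 epithelial, 12 stromal and 10 smooth muscle markers looked at reached 1 FPKM in at least 3 libraries, the filter for testing. Of the 10 keratins, 7 passed this filter, while Krt5, Krt14 and Krt15 did not. Krt23 reached 1 FPKM in all 4 diestrus libraries and in 1 estrus library.

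The keratins of simple epithelium dominated in both phases and stood higher in sum at estrus. Their summed level was 668.2, 500.9, 824.1 and 678.7 FPKM across the diestrus libraries (replicates 1 to 4, in order here and below) and 1744, 2175 and 1813 FPKM across the estrus libraries (replicates 1 to 3). Every estrus library lay above every diestrus library, and the ratio of the means was 2.86. The 5 keratins of stratified epithelium summed to 3.96 to 6.46 FPKM at diestrus and to 6.40, 16.1 and 6.45 FPKM in the estrus libraries. These ranges overlapped. Their ratio of means, 1.92, was 1.28 without estrus replicate 2. Simple-epithelium keratins made up 98.7% to 99.4% of the sum of the 10 genes at diestrus and 99.3% to 99.7% at estrus.

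**Figure D1:**
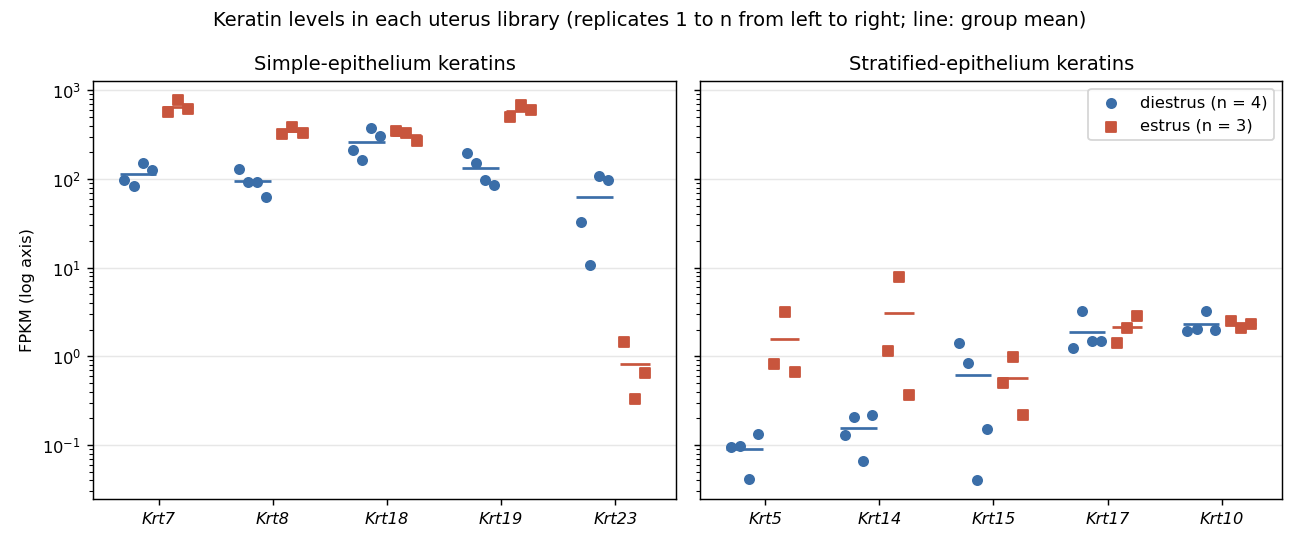
FPKM of each of the 10 keratins in each library on a log axis, with diestrus libraries as blue circles, estrus libraries as red squares and group means as lines. Krt7, Krt8 and Krt19 lie higher at estrus without overlap, Krt23 lies lower, Krt18 overlaps, and the stratified-epithelium keratins stay under 10 FPKM, the highest being Krt14 at 7.81 FPKM in estrus replicate 2.

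Among all 10 keratins the groups did not overlap for 6, of which 5 were higher and 1 was lower at estrus. Among the 7 that passed the filter, 3 were higher and 1 was lower without overlap. Of all 13920 genes tested, 40.6% had groups that did not overlap, 21.9% higher and 18.7% lower at estrus. In a limma fit over all these genes on log2(FPKM + 1), 31.1% passed an adjusted p threshold of 0.05 (Benjamini-Hochberg), 17.2% with higher and 14.0% with lower levels at estrus. The 10 keratins were selected with this contrast in view, so no calls are given for them and nothing is read from their counts.

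Krt7, the type II keratin of ducts and glands (GRCm38 chromosome 15, 101411043 to 101430313, plus strand, protein-coding), had the highest keratin level at estrus. It stood at 97.7, 83.4, 151.6 and 126.4 FPKM at diestrus and at 572.4, 779.1 and 609.5 FPKM at estrus. The lowest estrus library was above the highest diestrus library by a wide margin. The means were 114.8 ± 30.4 FPKM (SD, n = 4) and 653.6 ± 110 FPKM (SD, n = 3), and the log2 fold change on the log2(FPKM + 1) scale was 2.52 (SE 0.23), between 2.38 and 2.67 when any 1 library was left out.

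Krt19, the smallest type I keratin (chromosome 11, 100140810 to 100148665, minus strand), came next. Its levels were 194.9, 151.9, 97.2 and 85.1 FPKM at diestrus and 500.3, 679.9 and 600.7 FPKM at estrus. Here too the groups did not overlap, but within diestrus the libraries were ordered differently: replicates 1 and 2 were the 2 highest for Krt19 and the 2 lowest for Krt7. The log2 fold change was 2.23 (SE 0.30). At estrus the ranges of Krt7 and Krt19 overlapped across libraries, but within each library Krt7 was the higher, at 1.14, 1.15 and 1.02 times Krt19. At diestrus the ranges of Krt18, Krt19, Krt7, Krt8 and Krt23, in falling order of their means, each overlapped that of the next. Within each diestrus library Krt18 was above Krt19.

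Krt8 and Krt18, whose products pair with each other, are neighbours on chromosome 15 (101996698 to 102004482, minus strand, and 102028180 to 102032027, plus strand), 23.7 kb apart. Krt8 stood at 129.6, 92.7, 92.0 and 63.4 FPKM at diestrus and at 324.9, 389.1 and 333.1 FPKM at estrus, without overlap (log2 fold change 1.91, SE 0.23). Krt18 stood at 212.9, 162.1, 375.8 and 305.4 FPKM at diestrus and at 344.6, 326.7 and 269.1 FPKM at estrus. The highest value of Krt18 was in a diestrus library and the groups overlapped, with means of 264.0 ± 95.3 and 313.5 ± 39.4 FPKM and a log2 fold change of 0.31 (SE 0.29). Krt18 had the highest mean of the 10 genes at diestrus and the fourth highest at estrus. A processed pseudogene of Krt8, Krt8-ps on chromosome 7, is annotated, and reads shared with it may be lost or assigned to either copy.

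Krt23, an acidic keratin of simple and glandular epithelia (chromosome 11, 99477974 to 99493137, minus strand), went the other way. It stood at 33.1, 10.8, 107.6 and 98.3 FPKM in diestrus replicates 1 to 4 and at 1.47, 0.34 and 0.65 FPKM at estrus. All diestrus libraries were above all estrus libraries, although diestrus itself spanned a wide range, with replicates 3 and 4 high and replicate 2 low. The diestrus mean was 76.3 times the estrus mean, and the log2 fold change was -4.70 (SE 0.74), between -5.35 and -4.28 when any 1 library was left out. Because the estrus values are low, the added pseudocount matters: with 5 in place of 1 the value was -3.15, and with 0.1 it was -5.79.

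The stretches of 250 bases before the RefSeq start sites (build GRCm38.p6) are shown for 4 of the simple-epithelium keratins: the adjacent genes Krt8 and Krt18, whose levels differed in their relation to the cycle phase, and Krt7 and Krt23, the keratins with the largest difference in each direction among the 7 tested. Of these 4, the window of Krt7 lies wholly inside the gene interval given above, and the windows of Krt8, Krt18 and Krt23 overlap theirs in part. None of the 4 starts used is therefore the outermost annotated one. The window of Krt14, not shown, also lies wholly inside its gene interval. RefSeq windows were matched for 7 of the 10 genes. Each is written 5′ to 3′ on the gene's strand, and capitals mark 2 short motifs on either strand, the nuclear receptor half-site AGGTCA and the GC box GGGCGG, whose reverse complement is marked where it lies on the other strand.
Krt8 (chr15:102004343-102004592, minus strand): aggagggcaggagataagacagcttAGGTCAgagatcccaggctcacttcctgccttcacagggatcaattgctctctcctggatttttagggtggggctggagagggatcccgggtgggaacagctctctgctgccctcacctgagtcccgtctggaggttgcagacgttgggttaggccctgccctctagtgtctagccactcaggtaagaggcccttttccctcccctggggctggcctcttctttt
Krt18 (chr15:102027966-102028215, plus strand): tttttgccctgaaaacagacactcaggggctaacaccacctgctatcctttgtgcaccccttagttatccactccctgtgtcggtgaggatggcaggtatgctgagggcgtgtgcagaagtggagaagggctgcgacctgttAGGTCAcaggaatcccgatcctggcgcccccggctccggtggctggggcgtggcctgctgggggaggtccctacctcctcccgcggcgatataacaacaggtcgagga
Krt7 (chr15:101412153-101412402, plus strand): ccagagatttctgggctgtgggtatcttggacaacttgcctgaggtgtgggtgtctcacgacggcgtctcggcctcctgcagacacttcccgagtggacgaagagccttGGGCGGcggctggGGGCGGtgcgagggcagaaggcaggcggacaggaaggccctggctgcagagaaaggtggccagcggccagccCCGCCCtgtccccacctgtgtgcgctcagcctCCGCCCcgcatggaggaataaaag
Krt23 (chr11:99493121-99493370, minus strand): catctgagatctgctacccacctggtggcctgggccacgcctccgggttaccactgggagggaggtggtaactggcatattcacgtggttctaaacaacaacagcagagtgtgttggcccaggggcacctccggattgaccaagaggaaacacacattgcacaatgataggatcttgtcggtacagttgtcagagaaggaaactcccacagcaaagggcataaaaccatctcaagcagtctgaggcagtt

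The windows of Krt8 and Krt18 each held 1 copy of AGGTCA, 225 to 220 and 108 to 103 bases before the start, a motif found in 13.8% of 27025 promoter windows of this length. The Krt7 window held GGGCGG 4 times, 2 copies on each strand, against at least 1 copy in 32.9% of windows. The palindromic estrogen response element, present in 0.1% of windows, and the AP-1 motif TGANTCA, present in 6.9%, were in none of the 7 keratin windows. The TATA box string TATAAA, present in 13.0%, was found in the window of Krt10 alone. Only exact strings were searched, so variants of the TATA box in the other windows were not looked for. Krt23 held none of these exact strings, nor CACCC, which 51.3% of windows contain. GC content was 66.0% for Krt7, 60.4% for Krt18, 58.0% for Krt8 and 52.8% for Krt23. A match is a string of letters and was not tested for binding.

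With unequal differences among the simple-epithelium keratins, the make-up of their transcripts differed between the phases. Krt18 made up 31.9% to 45.6% of their summed FPKM at diestrus and 14.8% to 19.8% at estrus. Krt7 made up 14.6% to 18.6% at diestrus and 32.8% to 35.8% at estrus. Neither share overlapped between the groups. Krt23 made up 4.96%, 2.16%, 13.1% and 14.5% at diestrus and under 0.1% in each estrus library, the highest of the 3 being 0.084%. The shares of Krt8 and Krt19 overlapped between the groups.

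**Figure D2:**
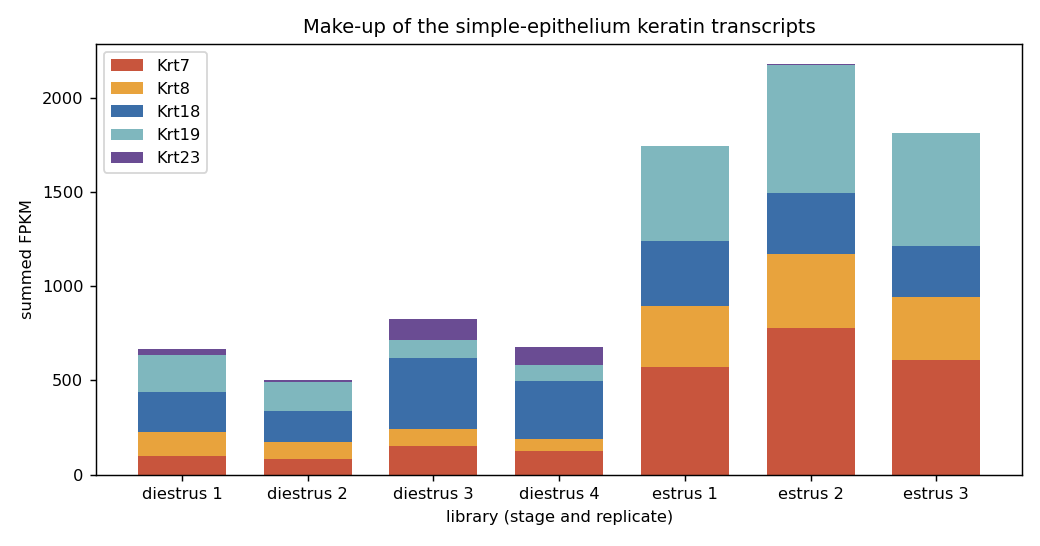
Stacked bars of the FPKM of Krt7, Krt8, Krt18, Krt19 and Krt23 in each library, 4 at diestrus and 3 at estrus. The bars reach 500.9 to 824.1 FPKM at diestrus and 1744 to 2175 FPKM at estrus, and the Krt23 segment is too small to see at estrus.

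Set against each other by type, the transcripts of the type II genes (Krt7 and Krt8) were fewer than those of the type I genes (Krt18, Krt19 and Krt23) at diestrus and slightly more abundant at estrus. The ratio of their sums was 0.52, 0.54, 0.42 and 0.39 at diestrus and 1.06, 1.16 and 1.08 at estrus. No library of either group lay within the range of the other. For the Krt8 and Krt18 pair alone the ratio was 0.61, 0.57, 0.24 and 0.21 at diestrus and 0.94, 1.19 and 1.24 at estrus. The ratio of Krt7 to Krt19 behaved differently. It was 0.50, 0.55, 1.56 and 1.49 in the diestrus libraries and 1.14, 1.15 and 1.02 at estrus, so the estrus values lay inside the diestrus range. These are ratios of transcripts, and the proteins were not analysed here.

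**Figure D3:**
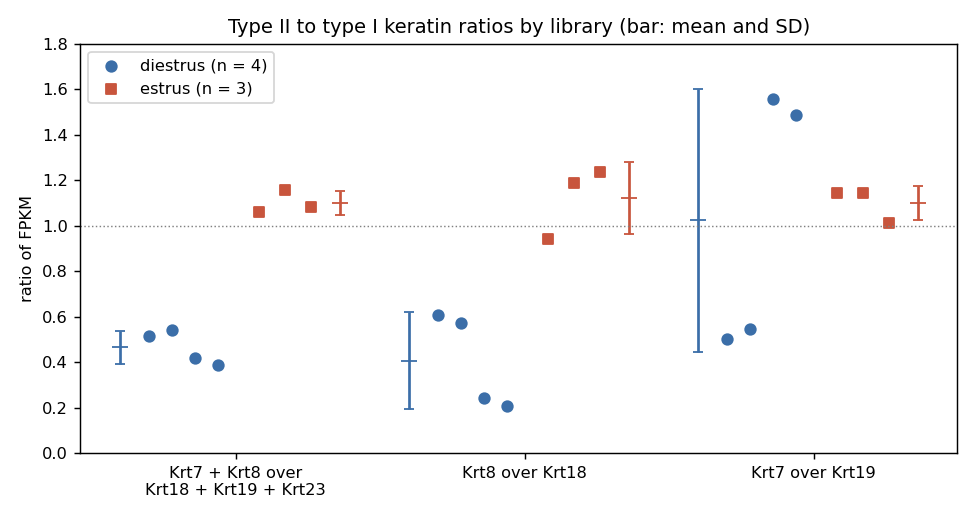
Ratios of FPKM by library, with diestrus libraries as blue circles, estrus libraries as red squares, and the mean and SD as bars. The summed type II to type I ratio and the Krt8 to Krt18 ratio are higher at estrus in every library, while for Krt7 over Krt19 the diestrus libraries lie on both sides of the estrus values.

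The diestrus libraries differed among themselves. Replicates 3 and 4 had the higher values of Krt18, Krt7 and Krt23, and replicates 1 and 2 the higher values of Krt19, Krt8 and Krt15, with Krt8 close in replicates 2 and 3 (92.7 and 92.0 FPKM). Beside these, 12 markers of uterine glands summed to 567, 1126, 17522 and 13603 FPKM in diestrus replicates 1 to 4 and to 1379 to 2658 FPKM at estrus, so the libraries with the highest Krt23 also had the highest sum of gland markers. In diestrus replicates 3 and 4 that sum was carried by 3 secreted products, the proteases Prss28 and Prss29 and the protease inhibitor Spink3. They stood at 3411, 7952 and 5835 FPKM in diestrus replicate 3 and at 2180, 6335 and 4900 FPKM in replicate 4. Foxa2, Sox17, Ltf and Cxcl15 were lower in these libraries than in replicates 1 and 2, whereas Wfdc3, Sox9 and Ttr were higher. Lif and Fgfr2 followed neither order. Foxa2, a gland transcription factor, stood at 12.2, 10.3, 8.54 and 7.41 FPKM in diestrus replicates 1 to 4, and Sox17, another transcription factor, at 70.3, 52.4, 33.9 and 28.5 FPKM. Ltf, lactoferrin, stood at 309.1, 633.8, 146.1 and 38.9 FPKM, and Cxcl15, a chemokine, at 35.1, 8.15, 0.35 and 0.56 FPKM. At estrus Ltf stood at 1231, 1750 and 2484 FPKM and made up most of the gland marker sum, as in diestrus replicates 1 and 2. The high sums thus came from different genes at the 2 phases. The rise of Ltf had a limma adjusted p of 0.0257, and of 0.0875 without estrus replicate 2. Wfdc3 stood at 8.27, 1.82, 21.4 and 20.5 FPKM and Sox9 at 22.7, 7.42, 42.2 and 31.0 FPKM, with replicate 2 lowest as for Krt23. Ttr stood at 1.58, 4.54, 6.34 and 12.9 FPKM. The part of gland content in the Krt23 values was not tested. Of the 11 gland markers tested, 2 rose and 4 fell at estrus. Lif, the cytokine needed for implantation, rose by 2.08 on the log2 scale, and Foxa2 fell by 1.06 (limma adjusted p = 0.00532 and 0.00994). The growth factor receptor Fgfr2 fell by 1.10. Ttr, transthyretin, counted among the 4, stood at 1.58 to 12.9 FPKM at diestrus and at no more than 0.13 FPKM at estrus, so it met the filter only through the diestrus libraries. Without diestrus replicate 3 or any 1 estrus replicate 1 gland marker rose, and 6 fell without diestrus replicate 1.

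The keratins of stratified epithelium were low, none of them above 7.81 FPKM in any library. Krt14 stood at 0.13, 0.21, 0.067 and 0.22 FPKM at diestrus and at 1.15, 7.81 and 0.37 FPKM at estrus. Its pairing partner Krt5 stood at 0.094, 0.097, 0.041 and 0.13 FPKM at diestrus and at 0.83, 3.17 and 0.67 FPKM at estrus. For both genes all estrus libraries were above all diestrus libraries, and estrus replicate 2 was the highest by far. The difference on the log2(FPKM + 1) scale was 1.36 for Krt14 and 1.10 for Krt5, and with a pseudocount of 0.1 it was 2.75 and 2.82. Without estrus replicate 2 it was 0.57 for Krt14 and 0.68 for Krt5. Both genes missed the filter and were not fitted.

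Krt15 stood at 1.41, 0.85, 0.041 and 0.15 FPKM at diestrus and at 0.50, 0.99 and 0.22 FPKM at estrus, and its log2 difference took either sign among the settings tried. Krt17 ranged from 1.24 to 3.25 FPKM at diestrus and from 1.43 to 2.87 FPKM at estrus (log2 fold change 0.15, SE 0.26). Krt10 ranged from 1.96 to 3.22 and from 2.10 to 2.49 FPKM, with the same mean of 2.30 FPKM in both groups (log2 fold change 0.01, SE 0.17). The groups overlapped for all 3 genes, and the sign of the difference for Krt17 and Krt10 was not the same under every setting tried. Krt14 and Krt17 resemble each other closely in sequence, and the assignment of reads between them is uncertain.

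Other markers of the stratified epithelium of vagina and cervix, 13 in all, summed to 3.58 to 7.995 FPKM at diestrus and to 40.3, 128.0 and 44.8 FPKM at estrus, with estrus replicate 2 again highest. Only 3 of them passed the filter, of which 2 were called higher, and these 2 made up most of the sum at estrus. Sprr1a, a cornified envelope precursor, rose from 2.10 ± 0.92 to 35.2 ± 32.6 FPKM (limma adjusted p = 0.00635). Serpinb5, the serpin maspin, stood at 0.69, 0.72, 1.05 and 0.30 FPKM at diestrus and at 14.1, 25.7 and 14.1 FPKM at estrus, and met the filter through the estrus libraries and 1 diestrus library, so its call is not free of the filter. Among the rest, chosen after their values were seen, Krt13 stood at 1.43, 5.32 and 0.70 FPKM and Krt6b at 0.71, 16.4 and 11.4 FPKM in the estrus libraries, against at most 0.97 and 0.38 FPKM at diestrus. Krt4, on the same list, stood at 0.90, 0.91, 0.032 and 0.12 FPKM at diestrus and at 0.090, 0.34 and 0.049 FPKM at estrus, with overlapping groups. Trp63, the transcription factor that defines basal cells of stratified epithelium, was at 0.28 to 0.66 FPKM at diestrus and 0.23 to 0.46 FPKM at estrus. Krt16 was listed at 0 in diestrus replicate 3 and estrus replicate 3, and no marker was at 0 in every library of a group. The part of such tissue in the Krt5 and Krt14 values was not tested.

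Beyond the 10 genes the table held 42 other keratin rows, of which 31 stayed under 1 FPKM in every library and 7 were tested. Of these 7, 4 rose and none fell. Krt83, Krt84 and Krt85 are keratins best known from hair and nail. Krt83 stood at 1.95, 0.91, 2.72 and 1.68 FPKM at diestrus and at 17.5, 37.9 and 34.5 FPKM at estrus (log2 fold change 3.43, SE 0.32, limma adjusted p = 0.00124). Krt84 rose from 4.12 ± 1.66 to 54.5 ± 48.6 FPKM, with estrus replicate 3 at 110.6 FPKM, and Krt85 from 0.62 ± 0.47 to 7.94 ± 0.44 FPKM (adjusted p = 0.00562 and 0.00124). Krt20 is a keratin of intestinal and urothelial surface cells. It stood at 0.33, 0.39, 4.15 and 0.997 FPKM at diestrus and at 11.1, 10.5 and 31.1 FPKM at estrus. Its log2 fold change was 2.98 (SE 0.55, limma adjusted p = 0.00801). These 4 genes passed when any 1 library was left out. Krt20 and Krt85 reached 1 FPKM in 1 diestrus library each and passed the filter through the estrus libraries, so the count of rises among tested keratins is not free of the filter.

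The remaining tested keratins did not pass. Krt86, at 1.56 ± 0.95 and 4.22 ± 0.97 FPKM, had groups that did not overlap and an adjusted p of 0.0532. Krt12, best known from the cornea, stood at 0.38, 0.29, 12.4 and 6.71 FPKM at diestrus and at 12.0, 7.32 and 22.4 FPKM at estrus (adjusted p = 0.134), and so shared with Krt23 its high values in diestrus replicates 3 and 4. Krt80 stood at 8.51 ± 2.98 and 6.36 ± 1.39 FPKM (adjusted p = 0.360). The hair keratins are close copies of each other, and the split of reads among them is uncertain. All other keratin rows together summed to 13.2 to 41.3 FPKM at diestrus and to 91.5, 129.3 and 231.3 FPKM at estrus, so the 10 genes held 95.3% to 97.5% of all keratin FPKM at diestrus and 88.7% to 95.0% at estrus.

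**Figure D4:**
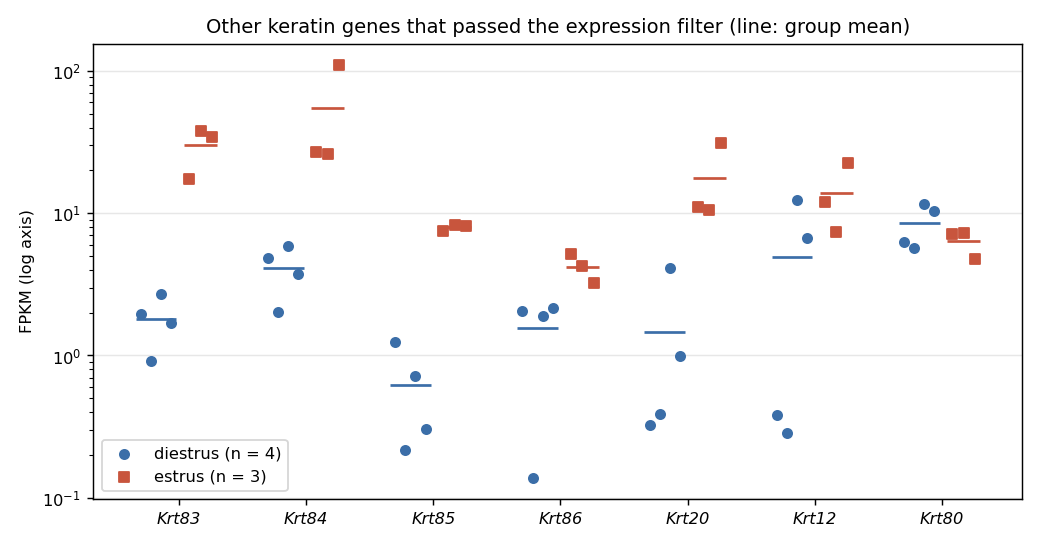
FPKM of the 7 other keratin genes that passed the expression filter, on a log axis, with diestrus libraries as blue circles, estrus libraries as red squares and means as lines. Krt83, Krt84, Krt85, Krt86 and Krt20 are higher in every estrus library, while Krt12 and Krt80 overlap.

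Keratin filaments end on desmosomes between cells and on hemidesmosomes at the basement membrane. All 7 tested desmosome genes rose at estrus, with a median log2 fold change of 1.56 beside 0.048 over all genes tested. Perp, a membrane protein of desmosomes, rose from 28.1 ± 6.77 to 129.7 ± 6.72 FPKM, and the plakophilins Pkp2 and Pkp3, plaque proteins, rose by 1.27 and 1.45 on the log2 scale. Plakoglobin, Jup, rose from 43.8 ± 5.599 to 93.1 ± 8.05 FPKM. The limma adjusted p values of these 4 were 0.00124, 0.00145, 0.0025 and 0.00258. Dsp, desmoplakin, the protein that binds keratin filaments to the plaque, rose by 1.60 (adjusted p = 0.0131, and 0.064 without estrus replicate 2). The 8 desmosome genes that missed the filter included Dsg1a, Dsg1b, Dsg1c, Dsg3, Dsg4, Dsc1 and Dsc3, the cadherins best known from stratified epithelium, and Pkp1.

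Of 10 tested genes of hemidesmosomes and cytolinkers, 6 rose and none fell, with a median log2 fold change of 1.11. Without estrus replicate 2, 5 rose. Dst, at a log2 fold change of -0.72 (limma adjusted p = 0.122), was called lower without diestrus replicate 1. Ppl stood at -0.25 (limma adjusted p = 0.263). Col17a1 and Eppk1 missed the filter. The integrin subunits Itga6 and Itgb4, the laminin receptor of hemidesmosomes, rose by 1.63 and 1.52, and the envelope protein envoplakin, Evpl, rose by 1.35. The limma adjusted p values of these 3 lay between 0.00233 and 0.00428. Plec, plectin, which links keratins to hemidesmosomes, rose by 0.86 (adjusted p = 0.0105, and 0.0581 without estrus replicate 2).

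**Figure D5:**
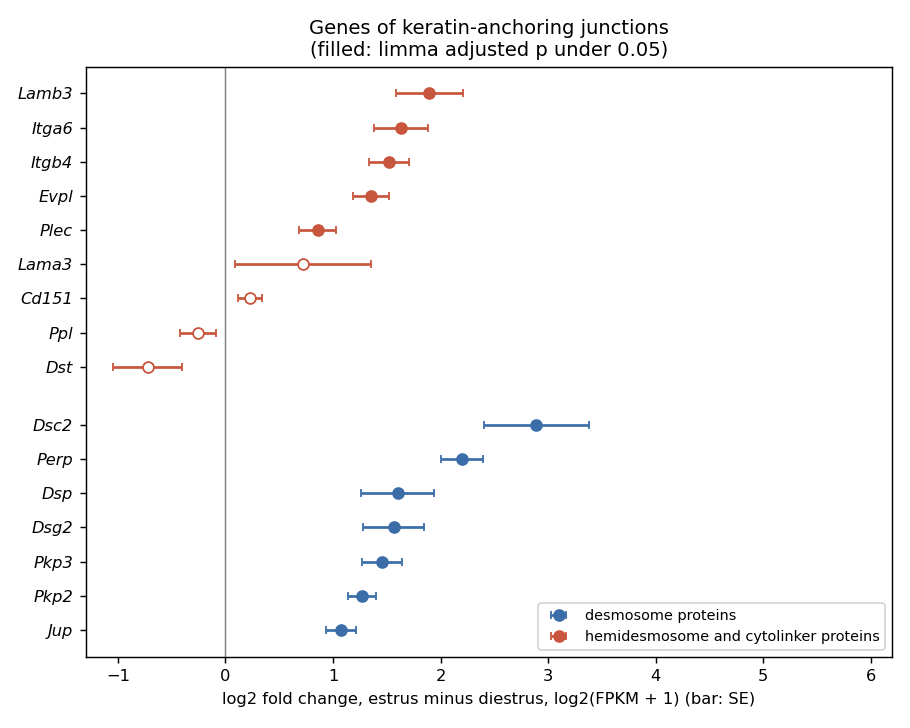
Log2 fold changes (estrus minus diestrus, log2(FPKM + 1)) with their SE for the 7 tested genes of desmosomes (blue) and 9 of the 10 of hemidesmosomes and cytolinkers (red), filled where the limma adjusted p is under 0.05. All 7 desmosome genes and 5 of the 9 hemidesmosome and cytolinker genes shown are filled, all to the right of 0.

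Genes of terminal differentiation showed no common direction. Of 4 tested genes of the cornified envelope, 1 was called higher and 1 lower, and both met the filter only through the group where they are high. The transglutaminase Tgm1 stood at 0.39 to 0.91 FPKM at diestrus and 1.26 to 1.56 FPKM at estrus, and trichohyalin, Tchh, at 1.01 to 2.25 and 0.59 to 0.81 FPKM. No gene of the list was called higher without diestrus replicate 3 (Tgm1 adjusted p = 0.0611) or without any 1 estrus library, where Tgm1 missed the filter. The call of Tchh was lost without any 1 library other than diestrus replicates 1 and 3 (adjusted p up to 0.0939), and 2 genes were called lower without diestrus replicate 1. Of 9 tested regulators of stratified epithelium, 3 were called higher and 2 lower. Sfn, the 14-3-3 protein sigma, rose from 7.73 ± 3.69 to 88.7 ± 19.6 FPKM, and Klf4, a transcription factor, from 23.4 ± 6.80 to 133.1 ± 11.5 FPKM (adjusted p = 0.00128 and 0.00141), whereas the Notch ligand Jag2 fell by 0.74. Tfap2c, a transcription factor, stood at 0.53, 1.40, 2.32 and 1.02 FPKM at diestrus and at 0.13 to 0.19 FPKM at estrus, and met the filter only through the diestrus libraries. Notch1, also called higher (limma adjusted p = 0.0431), lost its call without any 1 library other than diestrus replicate 1. No regulator fell without diestrus replicate 2 or 4 or estrus replicate 2 or 3, and 1 fell without diestrus replicate 3 or estrus replicate 1. The adjusted p reached 0.0954 for Tfap2c and 0.120 for Jag2, both without estrus replicate 2.

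In whole uterus, fewer cells of a type and less RNA per cell cannot be told apart. Of 20 tested markers of epithelium in general, 13 rose and none fell (median log2 fold change 1.27), and 10 rose without estrus replicate 2. Among them were Elf3, an epithelial transcription factor, which rose by 3.13, the tight junction protein Cldn7, which rose by 2.07, and the small GTPase Rab25, which rose by 1.46 (adjusted p from 0.00141 to 0.0025). The 20 markers summed to 1033 to 1566 FPKM at diestrus and to 2597 to 2781 FPKM at estrus. The summed simple-epithelium keratins were 0.58, 0.49, 0.53 and 0.58 times this sum in diestrus replicates 1 to 4 and 0.67, 0.78 and 0.65 times at estrus. Relative to the epithelial surface protein Epcam, Krt7 stood at 0.53 to 1.11 at diestrus and 1.72 to 2.56 at estrus, and Krt23 at 0.070 to 0.86 and 0.0011 to 0.0054, both without overlap. The ratios to Epcam of Krt8, Krt18 and Krt19 overlapped between the groups. The part of epithelial content in the keratin differences was not tested.

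Markers of other cells moved as well. Of 12 stromal markers 5 fell, among them Thy1, Hoxa10, Hoxa11 and Hand2, also when any 1 library was left out, and their 12 genes summed to 2962 to 5372 FPKM at diestrus and 3725 to 5020 FPKM at estrus. Of 9 tested markers of mesothelium, the outer lining of the uterus, which also makes simple-epithelium keratins, 4 were called lower (Wt1, Upk3b, Muc16 and Upk1b), Muc16 having met the filter only through 3 diestrus libraries, and the sum of the 10 on the list was 110.4 to 234.2 FPKM at diestrus and 58.9 to 90.1 FPKM at estrus. Only 1 fell without diestrus replicate 2 or 4 or estrus replicate 2 or 3, and 2 without diestrus replicate 3 or estrus replicate 1. Wt1 alone kept its call when any 1 library was left out. Across diestrus replicates 1 to 4 it rose in the same order as the stromal Hoxa10. The other 5 tested mesothelium markers did not pass, and their groups overlapped. Of 10 endothelial markers 9 fell, among them Esam, Cldn5, Tek and Emcn, but none without estrus replicate 2, 4 without estrus replicate 1 and 5 without diestrus replicate 3. Of 10 smooth muscle markers 1 rose (Actg2) and 1 fell (Smtn), and 3 fell without diestrus replicate 1 or with quantile normalization. Neither passed without diestrus replicate 2 or 3 or estrus replicate 2 or 3, and Smtn was lost without any 1 library other than diestrus replicate 1.

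Among intermediate filament genes that are not keratins, 1 of 8 tested fell and none rose. Without diestrus replicate 1, 2 fell, and without estrus replicate 3, 1 rose. Vim, the vimentin gene of mesenchymal cells, fell from 522.1 ± 176 to 269.0 ± 14.1 FPKM (limma adjusted p = 0.0379), which was lost without any 1 library other than diestrus replicates 1 and 2 (adjusted p up to 0.117). Des, the desmin gene of muscle, stood at 306.7 ± 113 and 290.4 ± 94.4 FPKM, and the lamin gene Lmna at 117.8 ± 19.4 and 129.3 ± 17.8 FPKM. Neither passed.

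The genes whose values followed each keratin most closely over the 7 libraries were named by the root-mean-square difference of log2(FPKM + 1), each gene centred on its own mean. For Krt7 these were Klf4, Perp and Gvin1 (0.20, 0.21 and 0.21 log2 units, against a median of 1.28 over 12805 genes). For Krt8 they were Ttc39a, Tm7sf2 and Xpnpep1 (0.13, 0.15 and 0.16, median 1.00), and for Krt19 Rnpep, Ank and Micall2 (0.12, 0.13 and 0.15, median 1.17). For Krt18 they were Mcfd2, Sfxn1 and Tmbim6 (0.13, 0.15 and 0.15, median 0.49). For Krt23 they were Slc5a11, an inositol transporter, Cwh43 and Penk, the enkephalin precursor (0.57, 0.80 and 0.84, median 2.57). These differences were larger in log2 units, but the measure grows with how far a gene varies. The median for Krt23 was also the largest. Slc5a11 stood at 49.98, 7.54, 75.0 and 42.5 FPKM at diestrus, with replicate 2 lowest as for Krt23. The nearest genes of Krt17 were Mfap3l, Ldb3 and Hk3 (0.076, 0.088 and 0.12, median 0.47), and those of Krt10 were Ccdc84, Mthfsd and Cggbp1 (0.061, 0.064 and 0.069, median 0.35), where small differences come with values that hardly vary.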

How the data were processed

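Per the labels' protocols, uterine RNA was isolated with RNeasy kits and sequenced from TruSeq RNA libraries. Expression was deposited as FPKM, in 1 column per library, matched to samples by their descriptions. TopHat2 2.0.4 and mm10, the assembly GRCm38, are named in the submitters' processing notes without a role. What computed the FPKM, and on which annotation, is not given in the sources used here. Depth per library is unknown, and no interval could be computed from counts.

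The 13920 genes that reached 1 FPKM in 3 or more libraries entered a limma fit of 2 groups (version 3.58.1, R 4.3.3) to log2(FPKM + 1), with trended empirical Bayes moderation and Benjamini-Hochberg adjustment over all genes tested (threshold 0.05). A fold change on this scale understates that of low genes. Libraries were grouped by their titles. The keratins, the 12 gene lists (epithelium, desmosome, hemidesmosome and cytolinker, cornified envelope, regulators of stratified epithelium, other intermediate filaments, mesothelium, gland, stroma, smooth muscle, endothelium, squamous epithelium) and the tests were chosen with earlier results of these data known. From the other keratins and each list, up to 4 called genes with the smallest p were named, or the 2 with the highest mean where none was called, plus the 3 nearest genes of each tested keratin, leaving out predicted genes and GenBank accessions. Of the genes so named, 2 are not reported here. Dsp, Plec, Krt86, Krt12, Krt80, Krt13, Krt6b, Krt4, Krt16, Trp63, Prss28, Prss29, Spink3, Sox17, Ltf, Cxcl15, Des, Lmna, Epcam and the desmosome genes that missed the filter were named after their values were seen. Wfdc3, Sox9, Notch1, Dst, Ppl, Col17a1 and Eppk1 were also named after their values were seen. No set test was run.

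The alternatives were quantile normalization, median-ratio scaling, pseudocounts of 0.1 and 5, no filter or one on a mean of 5 FPKM, moderation that was robust or untrended, single libraries left out, and the replicate number as a block. The fit was tested on simulated data. Coordinates are from GENCODE M21 (GRCm38) and promoter sequences from RefSeq (GRCm38.p6). Python 3.11.15 and matplotlib 3.10.9 drew the figures.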

Additional observations from a re-analysis of the deposited data

Results flagged for a closer look

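In groups of 4 libraries, a library was singled out where its gap to the next library, as a share of the range of the group, exceeded Dixon's 95% critical value, which chance does in about 1 of 20 groups. Of 78 quantities looked at in the diestrus libraries, 5 met this. Krt17 was highest in diestrus replicate 2, at 3.25 FPKM, with the other libraries between 1.24 and 1.49 FPKM. Krt10 was highest in diestrus replicate 3, at 3.22 FPKM, with the others between 1.96 and 2.06 FPKM. The ratio of Krt8 to Epcam was highest in diestrus replicate 1, at 1.32, against 0.56 to 0.59 in the others. Jup and Thy1 were lowest in diestrus replicate 1, at 35.5 and 76.3 FPKM, against 45.8 to 47.8 and 100.4 to 103.8 FPKM. The 3 estrus libraries are too few for this rule.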

How the results depend on the processing

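The log2 fold changes of Krt7, Krt8, Krt18, Krt19 and Krt23 kept their sign in all 16 alternatives that gave a value. Those of Krt5 and Krt14 kept it in all 11. These counts leave out the reported setting. Krt15, Krt17 and Krt10 took both signs. The ratio of summed simple-epithelium keratins between the phases was 2.64 to 3.10 with single libraries left out, and that of stratified-epithelium keratins 1.28 to 2.25. The number of genes called was 4336 (2393 higher, 1943 lower). With single libraries left out it ran from 1433 without estrus replicate 2 to 5311 without diestrus replicate 1, with 854 to 2866 higher and 579 to 2445 lower. It was 2559 without diestrus replicate 4 and 2633 without estrus replicate 1. With the filter set to a mean of 5 FPKM, 1181 were lower, from fewer genes tested. Over all lists and other keratins together 39 genes were higher and 27 lower. With single libraries left out these were 30 to 40 and 9 to 35. The replicate block, fitted on the 6 libraries with a number in both groups, called 2403 genes (1374 higher, 1029 lower). Same-numbered libraries share only a number: their deviations from the group means correlated across genes at 0.198, 0.024 and 0.169, and diestrus replicate 1 correlated better with estrus replicate 2 (0.206). The causes of these changes were not tested. FPKM without counts gives no depth, so values under 1 FPKM, as for Krt5, Krt14 and Krt15, have unknown precision.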
